A study of Capra hircus with 9 samples.

Results

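Metalloproteases and their tissue inhibitors (TIMPs) were followed in the uterus of Liaoning Cashmere goats (Capra hircus), a fibre breed. The members were taken by symbol: every row of the deposited count table named MMP, ADAM, ADAMTS or ADAMTSL with a number, or TIMP with a digit. There were 61 such rows of 25671: 18 MMP, 16 ADAM, 19 ADAMTS, 5 ADAMTSL and 3 TIMP genes. The rule used the names only and no measured value. TIMP4 was not analysed here.

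Polyadenylated RNA was counted at day 6, day 16 and day 19, with 3 libraries a day, and the time point is the only factor that separates the groups. The series title calls these days peri-implantation, and the event they are counted from is not labelled, nor are sex or treatment; the design text words the days as ages. The tissue field says uterus, the series title names endometrial epithelium and a protocol line mentions testis. No label states that a day's triplicate stems from different animals. The p-values therefore reflect only variation among these libraries, which may be technical.

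Matrix metalloproteinases (MMPs) are zinc-dependent enzymes that cut collagens and other matrix proteins and are made as inactive proenzymes. ADAM proteins sit in the cell membrane and release the outer parts of growth factors, cytokines and receptors, a step called shedding. ADAMTS enzymes are secreted, carry thrombospondin repeats and cut proteoglycans and procollagens, while ADAMTSL proteins resemble them but lack the catalytic domain. TIMPs bind the active site of these enzymes. In the uterus the balance of these proteins is known to go with remodelling of the stroma and with attachment of the conceptus.

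The libraries held 8712751 to 11074693 counts, and levels are given as CPM (counts scaled to library size after TMM, the trimmed mean of M-values). CPM is not corrected for transcript length, so genes are compared between days and not with each other. Markers of stromal fibroblasts summed to between 18204 and 32284 CPM per library and the 6 measured markers of epithelium to between 617 and 1216, whereas the 11 measured markers of testis germ cells summed to at most 3.07 CPM and 5 of them (SYCP3, TNP1, ODF1, ADAM2 and SPATA16) were at 0 everywhere. Smooth muscle markers summed to 8383 CPM in day 6 replicate 1 and to between 18563 and 37570 in the other libraries. Day 19 replicate 1 stood apart: over the genes tested its Spearman correlation was 0.894 and 0.897 with the other day 19 libraries and 0.945 to 0.963 with those of day 16, and ribosomal protein genes held 2.40% of its counts against 6.59% and 5.62% in replicates 2 and 3. Members whose call appears only when it is left out are given with both values or named as such.

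Of the 61 members, 49 passed the filter on low counts and 12 did not. The counts of called members below are over these 49, and a gene is called where its adjusted p (edgeR quasi-likelihood, Benjamini-Hochberg over 16098 genes) is under 0.05. ADAM2 and MMP8, the neutrophil collagenase, had no count in any library. ADAM7, ADAM20, ADAM32, MMP1, MMP12, MMP13, MMP17, MMP20, MMP25 and MMP27 had 1 to 78 counts over all 9 libraries and were not tested.

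Over all members, 10 of the 49 were called at day 16 against day 6, where 8.86% of all genes tested were called: 3 higher (5.12% of all genes) and 7 lower (3.74%). At day 19 against day 16, 4 were called, a share of 1.2% among all genes: 2 higher (0.516%) and 2 lower (0.683%). At day 19 against day 6, 20 were called, a share of 22.9% among all genes: 5 higher (12.7%) and 15 lower (10.2%). The first and last of these comparisons share the day 6 libraries. At an unadjusted p under 0.05 the counts were 20, 16 and 31 members, beside 21.1%, 24.5% and 38.1% of all genes.

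The median log2 change of the members was -0.18, -0.14 and -0.42 in these comparisons, and that of all genes tested was -0.00027, 0.01 and 0.02. Libraries of the compared days did not overlap for 31 members at day 16 against day 6 (38.7% of all genes), 11 of them higher (19.9%) and 20 lower (18.8%). They did not overlap for 16 members at day 19 against day 16 (23.9%), 2 higher (11.9%) and 14 lower (12%). At day 19 against day 6 they did not overlap for 28 (38.5%), 7 higher (19.6%) and 21 lower (18.9%).

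Of the 18 MMP genes 10 were tested. At day 16 against day 6, 1 was called higher and 3 lower (5.12% and 3.74% of all genes), and at day 19 against day 6, 1 was called higher and 5 lower (12.7% and 10.2%). MMP2, gelatinase A, which cuts denatured collagen and basement membrane collagen, stood at 1128, 1032 and 1037 CPM in the day 6 libraries, 507, 458 and 457 on day 16, and 411, 354 and 553 on day 19. The day 6 libraries were all above every later library, and days 16 and 19 overlapped. The fitted change was -1.17 on the log2 scale at day 16 (SE 0.22, edgeR adjusted p = 0.00977; 0.0509 without day 16 replicate 2) and -1.28 on day 19 (SE 0.22, edgeR adjusted p = 0.00352), both against day 6. In whole tissue, fewer cells of a type and less RNA per cell cannot be told apart. The stromal markers, several of them collagen genes, were not called in either comparison (0 of 9). Their sums were 29222 to 32284 CPM on day 6, 18204 to 22617 on day 16 and 19246 to 28578 on day 19. COL1A1, COL1A2 and COL3A1 were lower in every day 16 library than on day 6. The other markers, PDGFRA, PDGFRB, DCN, LUM, VIM and THY1, each overlapped between day 6 and both later days. PDGFRA, for example, stood at 313 to 457 CPM on day 6 and 403 to 443 on day 16. The part of stromal cells in the fall of MMP2 was not tested.

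Of the membrane-anchored MMPs, MMP14, MMP15 and MMP16 were called lower at day 19 than at day 6, and MMP24 was not. MMP14, which activates the MMP2 proenzyme together with TIMP2, overlapped between day 6 (324, 262 and 265 CPM) and day 16 (299, 283 and 267) and stood at 202, 111 and 105 CPM on day 19. Its day 19 libraries were all below the other 6. The fall against day 6 was -1.02 (SE 0.26, edgeR adjusted p = 0.0205; between 0.0504 and 0.0731 without any 1 library of day 6, or without day 19 replicate 2 or 3). Against day 16 MMP14 missed the threshold with all libraries (edgeR adjusted p = 0.0771) and passed without day 19 replicate 1 (-1.37, edgeR adjusted p = 0.000117).

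MMP15 went in steps that did not overlap from 115, 73.6 and 86.6 CPM at day 6 to 39.8, 42.9 and 49.1 on day 16 and 25.8, 26.8 and 32.4 on day 19. Its change was -1.06 on day 16 (SE 0.20, edgeR adjusted p = 0.011; 0.0584 and 0.0541 when day 16 replicate 1 or 2 was left out) and -1.69 on day 19 against day 6 (SE 0.21, edgeR adjusted p = 0.000685). The step from day 16 to day 19 was not called with all 9 libraries and was without day 19 replicate 1 (-0.56, edgeR adjusted p = 0.0463). MMP16 went from a mean of 12.5 ± 1.80 CPM at day 6 to 5.21 ± 2.98 and 2.97 ± 1.80 (SD, n = 3 each), and was called at day 19 against day 6 (-2.08, SE 0.58, edgeR adjusted p = 0.0292). That call was lost without any 1 library of day 6 or without day 19 replicate 2 (0.0633 to 0.0888).

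MMP28, epilysin, a secreted MMP of epithelia, showed the steepest early fall of the family. It stood at 69.3, 48.5 and 39.8 CPM on day 6, 12.3, 6.26 and 7.93 on day 16, and 8.26, 12.9 and 16.3 on day 19. All day 6 libraries were above all later ones. The fall was 5.94-fold at day 16 (log2 fold change -2.57, SE 0.35, edgeR adjusted p = 0.00215) and 4.21-fold at day 19 (-2.07, SE 0.35, edgeR adjusted p = 0.00326), and both calls stood whichever library was left out.

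MMP7, or matrilysin, an enzyme of glandular epithelia that the deposited annotation describes as uterine, went the other way at day 16. Its libraries read 33.3, 63.7 and 40.2 CPM on day 6, 101, 118 and 117 on day 16, and 67.2, 90.4 and 62.3 on day 19. The day 16 values were above all others, and day 6 overlapped day 19. It rose 2.45-fold at day 16 (log2 fold change 1.29, SE 0.26, edgeR adjusted p = 0.0132; 0.052, 0.0733 and 0.053 without day 6 replicate 1, day 6 replicate 3 and day 16 replicate 2). The decline to day 19 was not called (edgeR adjusted p = 0.18), nor was the difference of day 19 from day 6 (0.0805; 0.0367 without day 19 replicate 1). Epithelial markers summed to more in every day 16 library than on day 6, with sums of 617 to 699 CPM on day 6, 1054 to 1125 on day 16 and 743 to 1216 on day 19, and 1 of 6 called higher and 1 lower at day 16; their part in the rise of MMP7 was not tested.

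In the reference gene order of assembly ARS1.2, used for neighbourhood only, MMP7 lies in a run of MMP genes with MMP20, MMP27, MMP8, MMP1, MMP12 and MMP13, with at most 2 other protein-coding genes between neighbours. None of those 6 neighbours passed the filter. MMP1, interstitial collagenase, was nearly absent from 8 libraries, with 0 counts in all 3 day 6 libraries, 1, 2 and 0 on day 16, and 75, 0 and 0 on day 19. Its counts thus lay in day 19 replicate 1. A row outside the naming rule that the table describes as MMP3, stromelysin, had 14 counts in that same library and 0 in the other 8, where a count of 0 allows up to 3.

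MMP9, gelatinase B, an enzyme of leukocytes, was scarce but higher later: 0.464, 0.721 and 0.292 CPM on day 6, 2.11, 0.911 and 2.25 on day 16, and 2.14, 3.20 and 2.01 on day 19. It was called at day 19 against day 6 (4.89-fold, log2 fold change 2.29, SE 0.53, edgeR adjusted p = 0.0138), a result that rests on 15 counts on day 6 and 73 on day 19. The p was 0.0539, 0.0629 and 0.05002 without day 6 replicate 1, day 6 replicate 3 and day 19 replicate 2. At day 16 MMP9 missed the threshold (edgeR adjusted p = 0.065; 0.0431 without day 19 replicate 1). MMP19 was level, at 86.3 ± 11.8, 88.1 ± 16.1 and 81.2 ± 7.78 CPM, as was MMP24 at 2.56 to 3.21 CPM on average. MMP11, stromelysin 3, had means of 32.4, 20.4 and 22.1 CPM and passed in no comparison.

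**Figure D1:**
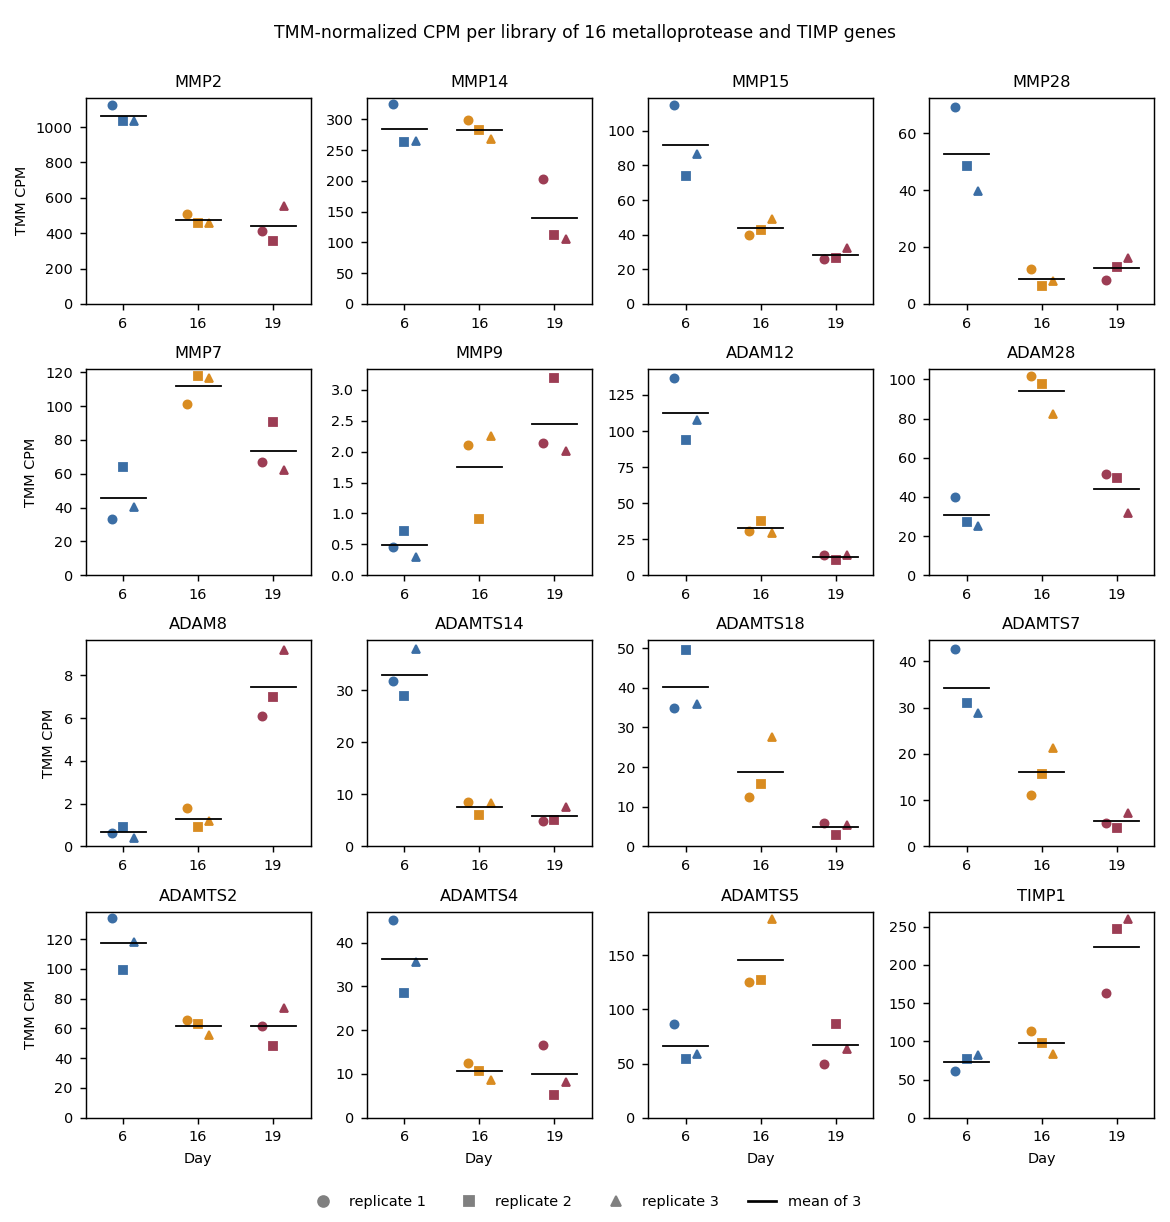
TMM-normalized CPM (y axis, linear, from 0) of 16 members against day (x axis); each symbol is 1 of the 3 libraries of a day and the bar is their mean. MMP2, MMP28 and ADAM12 are highest in all day 6 libraries, MMP7, ADAM28 and ADAMTS5 in all day 16 libraries, and ADAM8 and TIMP1 in all day 19 libraries.

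Of the 3 inhibitors, TIMP1 was called and TIMP2 and TIMP3 were not with all 9 libraries. TIMP1, a secreted inhibitor that cytokines induce, read 61.2, 77.3 and 82.3 CPM on day 6, 113, 98.3 and 82.9 on day 16, and 163, 247 and 260 on day 19. Every day 19 library was above every earlier one, and replicate 1 was the lowest of the 3. TIMP1 rose 3.03-fold from day 6 to day 19 (log2 fold change 1.60, SE 0.23, edgeR adjusted p = 0.00151), whichever library was left out, and 2.28-fold from day 16 to day 19 (1.19, SE 0.23, edgeR adjusted p = 0.0468). The second call was lost without any 1 library except day 19 replicate 1 (edgeR adjusted p = 0.0791 to 0.188).

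TIMP2, which inhibits MMP2 and also takes part in its activation by MMP14, stood at 1230 ± 76.7 CPM on day 6, 1616 ± 293 on day 16 and 1520 ± 239.9 on day 19 (each the mean of 3 ± SD), and passed in no comparison. TIMP3, which is held in the matrix and also inhibits ADAM17 and several ADAMTS enzymes, read 636, 648 and 672 CPM on day 6, 869, 988 and 924 on day 16, and 1225, 826 and 878 on day 19. Its later libraries were all above day 6. The difference missed the threshold with all 9 libraries (edgeR adjusted p = 0.206 on day 16 and 0.0775 at day 19) and passed without day 19 replicate 1, at 1.42-fold and 1.32-fold (edgeR adjusted p = 0.0141 and 0.0258).

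Within each library the counts of MMP2 were set against those of its inhibitors. For each count of TIMP2 there were 0.946, 0.783 and 0.879 counts of MMP2 on day 6, 0.269, 0.351 and 0.276 on day 16, and 0.323, 0.202 and 0.361 on day 19. For each count of TIMP1 there were 18.4, 13.4 and 12.6 counts of MMP2 on day 6, 4.49, 4.65 and 5.51 on day 16, and 2.53, 1.43 and 2.13 on day 19. By the TIMP2 ratio day 6 lay above both later days, and by the TIMP1 ratio no days overlapped. The ratio of MMP14 to TIMP2 counts separated the days less. It was 0.199 to 0.272 on day 6, 0.158 to 0.217 on day 16 and 0.0634 to 0.159 on day 19. By that ratio day 16 overlapped both other days. These are ratios of mRNA reads, chosen after the values were seen and given as a description; they measure neither protein nor enzyme activity.

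Summed over their rows, the 18 MMP genes held 1676 ± 122 CPM on day 6, 1041 ± 40.2 on day 16 and 808 ± 104 on day 19, while the 3 TIMP genes held 1956 ± 79.7, 2641 ± 240 and 2720 ± 92.8 (SD, n = 3 each). MMP2 was the largest part of the first sum and TIMP2 of the second. The 16 ADAM genes summed to 517 ± 32.9, 504 ± 37.0 and 373 ± 87.0 CPM; of the day 19 libraries, replicate 1 was at 473 and the others at 321 and 324.

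**Figure D2:**
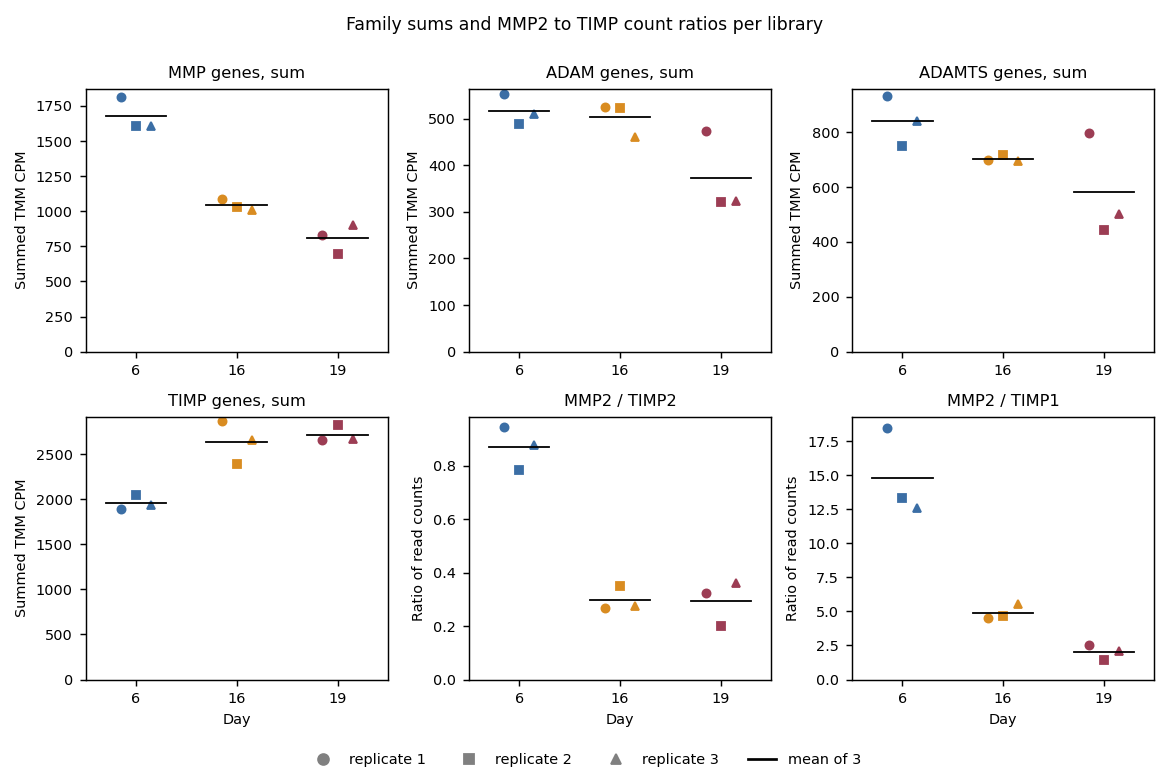
Summed TMM CPM of the MMP, ADAM, ADAMTS and TIMP rows and the ratio of MMP2 counts to TIMP2 and TIMP1 counts (y axes, linear, from 0) against day, with 1 symbol per library and a bar at the mean of 3. The MMP sum falls from 1676 to 808 CPM on average while the TIMP sum goes from 1956 to 2720, and the ADAM and ADAMTS sums of day 19 replicate 1 stand above those of replicates 2 and 3.

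Of the 16 ADAM genes 12 were tested. Of these, 2 were called higher and 3 lower at day 19 against day 6, where 12.7% and 10.2% of all genes were. ADAM12, a sheddase of stromal cells and placenta that also cuts insulin-like growth factor binding proteins, read 137, 94.0 and 108 CPM on day 6, 30.5, 37.8 and 29.4 on day 16, and 14.0, 10.5 and 13.9 on day 19. No library of a day overlapped another day. The change was -1.79 on day 16 (SE 0.21, edgeR adjusted p = 0.000836) and -3.14, an 8.82-fold fall, at day 19 (SE 0.22, edgeR adjusted p = 7.53e-05), both against day 6, and it stood whichever library was left out. The step from day 16 to day 19 was called too (-1.35, SE 0.21, edgeR adjusted p = 0.0377), but not without any 1 library other than day 19 replicate 1 (0.0695 to 0.147).

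ADAM8, a sheddase found on leukocytes, was near the limit of detection at day 6 (0.650, 0.927 and 0.390 CPM) and day 16 (1.79, 0.911 and 1.17) and reached 6.12, 6.99 and 9.20 CPM on day 19. All 3 day 19 libraries, replicate 1 included, were above the rest. ADAM8 rose 11.2-fold from day 6 (log2 fold change 3.48, SE 0.44, edgeR adjusted p = 0.000803) and 5.71-fold from day 16 (2.51, SE 0.41, edgeR adjusted p = 0.038; 0.0747 to 0.175 without any 1 library other than day 19 replicate 1).

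Markers of macrophages moved in the same direction as ADAM8 and MMP9. The 9 measured markers summed to 294 to 655 CPM on day 6, 497 to 723 on day 16 and 865 to 1349 on day 19. Against day 6, 5 of the 8 tested were called higher at day 19 and 1 lower; MARCO had at most 0.291 CPM. The 7 measured markers of neutrophils summed to 2.44 to 3.81 CPM on day 6, 6.74 to 22.3 on day 16 and 6.98 to 7.39 on day 19, and of the 4 tested 2 were called higher at day 16 and 1 at day 19, both against day 6. MPO, a neutrophil granule enzyme, was at 0 to 0.103 CPM and MMP8 at 0. The part of these cells in the rise of ADAM8 and MMP9 was not tested.

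ADAM28, a sheddase of lymphocytes and epithelia, was highest at day 16: it read 39.7, 27.3 and 25.1 CPM on day 6, 102, 97.6 and 82.6 on day 16, and 51.5, 49.6 and 31.6 on day 19. The day 16 libraries were above all others, and days 6 and 19 overlapped. The 3.06-fold rise to day 16 (log2 fold change 1.61, SE 0.25, edgeR adjusted p = 0.00379) stood whichever library was left out. The later decline missed the threshold (edgeR adjusted p = 0.0612) and passed without day 19 replicate 1 (-1.19, edgeR adjusted p = 0.00432). The 7 measured T and NK lymphocyte markers summed to 72.1 to 91.5 CPM on day 6, 75.7 to 133 on day 16 and 91.8 to 108 on day 19, and none was called at day 16. Epithelial markers summed to 617 to 699 CPM on day 6, 1054 to 1125 on day 16 and 743 to 1216 on day 19. They did not move together, and of 6 tested 1 was called higher and 1 lower at day 16 against day 6. EPCAM, CDH1, CLDN4 and ELF3 were above all day 6 libraries in every day 16 library, and KRT7 and KRT18 were below. The part of either cell type in the rise of ADAM28 was not tested.

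ADAM10 and ADAM17 are the main sheddases of Notch receptors, growth factors and tumour necrosis factor. ADAM10 stood at 111, 99.98 and 113 CPM on day 6, 82.0, 80.0 and 83.4 on day 16, and 87.4, 43.5 and 33.1 on day 19, so that replicate 1 of day 19 lay just above the day 16 libraries and the other 2 far below them. Its fall against day 6 was -0.98 (SE 0.31, edgeR adjusted p = 0.0467) and passed only narrowly: the p was 0.0714 to 0.143 without any 1 library other than day 19 replicate 1, and without that one the change was -1.48. ADAM17 had means of 53.8 ± 3.10, 64.4 ± 4.49 and 45.7 ± 7.69 CPM and was not called with all libraries. Without day 19 replicate 1 it was called lower at day 19, by -0.63 against day 16 and -0.37 against day 6 (edgeR adjusted p = 0.00247 and 0.0247).

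ADAM15, a membrane ADAM with an integrin-binding motif, was slightly higher at day 19: 84.7, 72.2 and 69.9 CPM on day 6 against 116, 103 and 116 (1.47-fold, log2 fold change 0.56, SE 0.16, edgeR adjusted p = 0.0355). The libraries did not overlap, yet the call was lost without any 1 library except day 16 replicate 3 and day 19 replicate 1 (0.0557 to 0.138). ADAM22, a catalytically inactive member best known from neurons, went from 7.98, 2.06 and 5.26 CPM to 1.07, 0.0998 and 0.846 on day 19 (-2.90, SE 0.71, edgeR adjusted p = 0.018; 0.0694 and 0.0551 when day 6 replicate 1 or 3 was left out). Its day 6 libraries spread from 2.06 to 7.98 CPM, and all 3 were above those of day 19. ADAM9, ADAM11, ADAM19, ADAM23 and ADAM33 passed in no comparison with all 9 libraries. Without day 19 replicate 1, ADAM33 was called lower at day 19 than at day 16 (-1.87, edgeR adjusted p = 0.000151) and day 6 (-1.65, edgeR adjusted p = 0.000173). ADAM9 was then lower at day 19 than at day 6 (-1.10, edgeR adjusted p = 0.000151) and day 16 (-0.73, edgeR adjusted p = 0.00209), and at day 16 than at day 6 (-0.38, edgeR adjusted p = 0.0458). ADAM11 was lower at day 19 by -1.65 against each earlier day (edgeR adjusted p = 0.00758 against day 16 and 0.00587 against day 6), and ADAM19 by -0.55 against day 6 (edgeR adjusted p = 0.0444). The same omission added ADAM10, ADAM15 and ADAM22 to the calls at day 16 against day 6 (-0.40, 0.48 and -2.17; edgeR adjusted p = 0.0417, 0.0298 and 0.0358) and ADAM10 at day 19 against day 16 (-1.08, edgeR adjusted p = 0.000317).

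Of the 19 secreted ADAMTS genes, all tested, 3 were called lower and 1 higher at day 16 against day 6, where 3.74% and 5.12% of all genes were. At day 19 against day 16, 1 was called lower (0.683% of all genes). At day 19 against day 6, 6 were called lower and none higher, where 10.2% and 12.7% of all genes were. At an unadjusted p under 0.05, ADAMTS3 was the 1 gene of the 19 that was higher at day 19 than at day 6 by edgeR.

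Of the procollagen N-proteinases, which remove the amino-terminal propeptide of fibrillar procollagens, ADAMTS2 and ADAMTS14 fell and ADAMTS3 did not. ADAMTS14 read 31.7, 28.9 and 37.9 CPM on day 6, 8.53, 6.04 and 8.29 on day 16, and 4.86, 5.09 and 7.51 on day 19. Its day 6 libraries were all above the later ones. It fell 4.30-fold at day 16 (log2 fold change -2.11, SE 0.25, edgeR adjusted p = 0.000937) and 5.64-fold at day 19 (-2.50, SE 0.25, edgeR adjusted p = 0.000291), whichever library was left out.

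ADAMTS2 stood at 134, 99.2 and 118 CPM on day 6, 65.8, 63.0 and 55.9 on day 16, and 61.7, 48.3 and 73.9 on day 19. It was lower by -0.93 at both later days (SE 0.20 each, edgeR adjusted p = 0.0182 and 0.00973). Leaving out day 6 replicate 1 or 3, or any 1 library of day 16, ended the day 16 call (0.0599 to 0.0763) and none ended the day 19 call. ADAMTS3 was higher in every later library, with 3.99, 3.19 and 3.31 CPM on day 6, 13.1, 8.66 and 5.86 on day 16, and 11.7, 4.69 and 7.62 on day 19, but missed the threshold (edgeR adjusted p = 0.0662 and 0.0611). Without day 19 replicate 1 its rise to day 16 passed (2.61-fold, edgeR adjusted p = 0.018).

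The genes at the other end of procollagen were measured for comparison. BMP1, the astacin proteinase that removes the carboxy-terminal propeptide, read 358, 226 and 233 CPM on day 6, 126, 84.5 and 93.3 on day 16, and 60.8, 59.6 and 100.5 on day 19. It fell by 1.43 on the log2 scale at day 16 (edgeR adjusted p = 0.0132; 0.0663 and 0.0534 when day 16 replicate 2 or 3 was left out) and by 1.89 on day 19 (edgeR adjusted p = 0.00207). PCOLCE, an enhancer of that cleavage, was 2.03-fold higher at day 19 than at day 6 (edgeR adjusted p = 0.00789). The collagen genes themselves, COL1A1, COL1A2 and COL3A1, were not called in any of the 3 comparisons, although their day 16 libraries were all below day 6: COL1A1 stood at 6191 to 6980 CPM on day 6, 2854 to 4673 on day 16 and 3222 to 6427 on day 19.

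**Figure D3:**
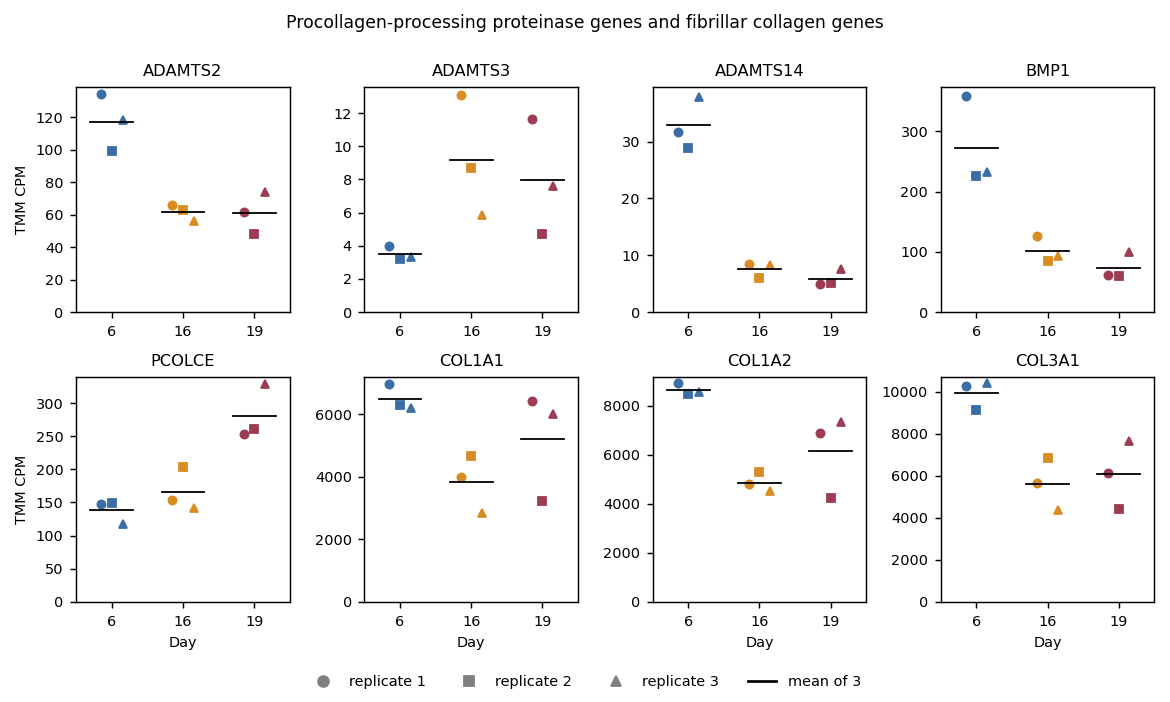
TMM-normalized CPM (y axis, linear, from 0) against day (x axis) of the procollagen N-proteinase genes ADAMTS2, ADAMTS3 and ADAMTS14, of BMP1 and its enhancer PCOLCE, and of 3 fibrillar collagen genes, with 1 symbol per library and a bar at the mean of 3. ADAMTS14 and BMP1 are lower in all later libraries, whereas the collagen genes at day 19 spread between replicates.

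The proteoglycan-cutting enzymes split. ADAMTS4, an aggrecanase, read 45.1, 28.5 and 35.5 CPM on day 6, 12.5, 10.7 and 8.65 on day 16, and 16.7, 5.29 and 8.15 on day 19. It fell 3.42-fold at day 16 (log2 fold change -1.78, SE 0.39, edgeR adjusted p = 0.0212) and 3.61-fold at day 19 (-1.85, SE 0.39, edgeR adjusted p = 0.00975). Leaving out day 6 replicate 1 or 3, or any 1 library of day 16, ended the first call (0.0633 to 0.0878).

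ADAMTS5, the other main aggrecanase, was highest at day 16, with 86.8, 53.96 and 58.5 CPM on day 6, 125, 127 and 184 on day 16, and 49.7, 86.9 and 63.6 on day 19. All day 16 libraries were above the rest. The rise was 2.19-fold (log2 fold change 1.13, SE 0.27, edgeR adjusted p = 0.0317), and it was lost without day 6 replicate 2 or 3 or any 1 library of day 16 (0.0651 to 0.137). The later decline missed the threshold (edgeR adjusted p = 0.0713; 0.0183 without day 19 replicate 1).

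ADAMTS1, a versican-cutting enzyme needed for ovulation, lies next to ADAMTS5 in the reference gene order and read 146, 96.2 and 116 CPM on day 6, 196, 199 and 168 on day 16, and 285, 122 and 112 on day 19. Its day 16 libraries were all above day 6, but the difference was not called with all 9 libraries. Without day 19 replicate 1 it was (1.57-fold, edgeR adjusted p = 0.0178). From day 16 to day 19 the change was -0.12 with all 9 libraries (edgeR adjusted p = 0.842), and its sign reversed in 2 of 17 alternatives. Without day 19 replicate 1 that change was -0.67 and called (edgeR adjusted p = 0.0132). A separate row described as ADAMTS1-like had 2 to 56 counts per library, and reads of the pair could be split by the counting. ADAMTS9, another versicanase, had means of 208 ± 34.9, 119 ± 12.5 and 117 ± 51.9 CPM. It missed the threshold at both later days with all libraries and was called lower at both without day 19 replicate 1 (-0.81 and -1.25, edgeR adjusted p = 0.00455 and 0.000289).

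ADAMTS18 and ADAMTS7 declined across the days. ADAMTS18 read 34.9, 49.6 and 35.9 CPM on day 6, 12.5, 15.8 and 27.6 on day 16, and 6.02, 3.00 and 5.39 on day 19, with no overlap between days. Its 8.33-fold fall from day 6 to day 19 (log2 fold change -3.06, SE 0.37, edgeR adjusted p = 0.000715) stood whichever library was left out. The fall from day 16 (-1.96, SE 0.36, edgeR adjusted p = 0.0468) stood only without day 19 replicate 1 (0.0791 to 0.175 without any other). At day 16 against day 6 it missed the threshold (edgeR adjusted p = 0.084) and passed without that library (-1.10, edgeR adjusted p = 0.0367).

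ADAMTS7, which cuts cartilage oligomeric matrix protein, went from 42.6, 30.9 and 28.9 CPM through 11.06, 15.7 and 21.2 to 5.05, 4.09 and 7.19. The days did not overlap. It was called at day 19 against day 6 (-2.65, SE 0.32, edgeR adjusted p = 0.000686), whichever library was left out, and narrowly missed the threshold at each step (edgeR adjusted p = 0.0533 and 0.0507; 0.024 and 0.00753 without day 19 replicate 1).

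ADAMTS12, its closest relative, stood at 10.4, 9.27 and 10.2 CPM on day 6 and 6.74, 6.49 and 5.50 on day 16. At day 19 it read 4.18 CPM in replicate 1 and 0.699 and 0.423 in the others. It was called at day 19 against day 6 (-2.48, SE 0.66, edgeR adjusted p = 0.0244; 0.059 to 0.0701 without any 1 library of day 6 or without day 19 replicate 2), and the fall was -4.10 without day 19 replicate 1. ADAMTS6, ADAMTS8, ADAMTS10, ADAMTS13, ADAMTS15, ADAMTS16, ADAMTS17, ADAMTS19 and ADAMTS20 passed in no comparison with all 9 libraries. Without day 19 replicate 1, ADAMTS6, ADAMTS10, ADAMTS19 and ADAMTS20 were called lower at day 19 than at day 6, by -1.37, -0.94, -1.28 and -2.17 (edgeR adjusted p = 0.00944, 0.0156, 0.0269 and 0.019). ADAMTS12 and ADAMTS19 were then also lower at day 19 than at day 16 (-3.43 and -1.16, edgeR adjusted p = 8.81e-05 and 0.0476). ADAMTS16 was uneven within days, from 1.03 to 10.1 CPM on day 6 and from 0.583 to 6.89 on day 19.

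Of the 5 ADAMTSL genes, ADAMTSL4, which binds the fibrillin microfibrils, was higher at day 19 than at day 6. It stood at 66.2, 66.5 and 64.4 CPM on day 6, 90.1, 109 and 45.9 on day 16, and 146, 104 and 131 on day 19. The rise was 1.93-fold (log2 fold change 0.95, SE 0.29, edgeR adjusted p = 0.04; 0.0613 to 0.118 without any 1 library of day 6, day 16 replicate 1 or day 19 replicate 3). ADAMTSL5 went from a mean of 11.2 ± 1.93 CPM to 7.51 ± 0.859 and 4.49 ± 1.82, and was called lower at day 19 (-1.32, SE 0.33, edgeR adjusted p = 0.0184; 0.0569, 0.0697 and 0.0591 when day 6 replicate 1, day 6 replicate 3 or day 19 replicate 2 was left out).

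ADAMTSL1 had 18.2 to 21.5 CPM on day 6 and 14.4 to 22.8 on day 16. At day 19 it stood at 13.9 CPM in replicate 1 and 1.70 and 0.846 in replicates 2 and 3. It was not called with all 9 libraries and was the largest change among the calls added without replicate 1 (-3.96 against day 6 and -3.83 against day 16, edgeR adjusted p = 2.31e-05 and 5.51e-05). ADAMTSL3 was also highest in replicate 1 of day 19, with 187, 51.6 and 66.9 CPM, and ADAMTSL2 was at most 2.22 CPM in every library.

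**Figure D4:**
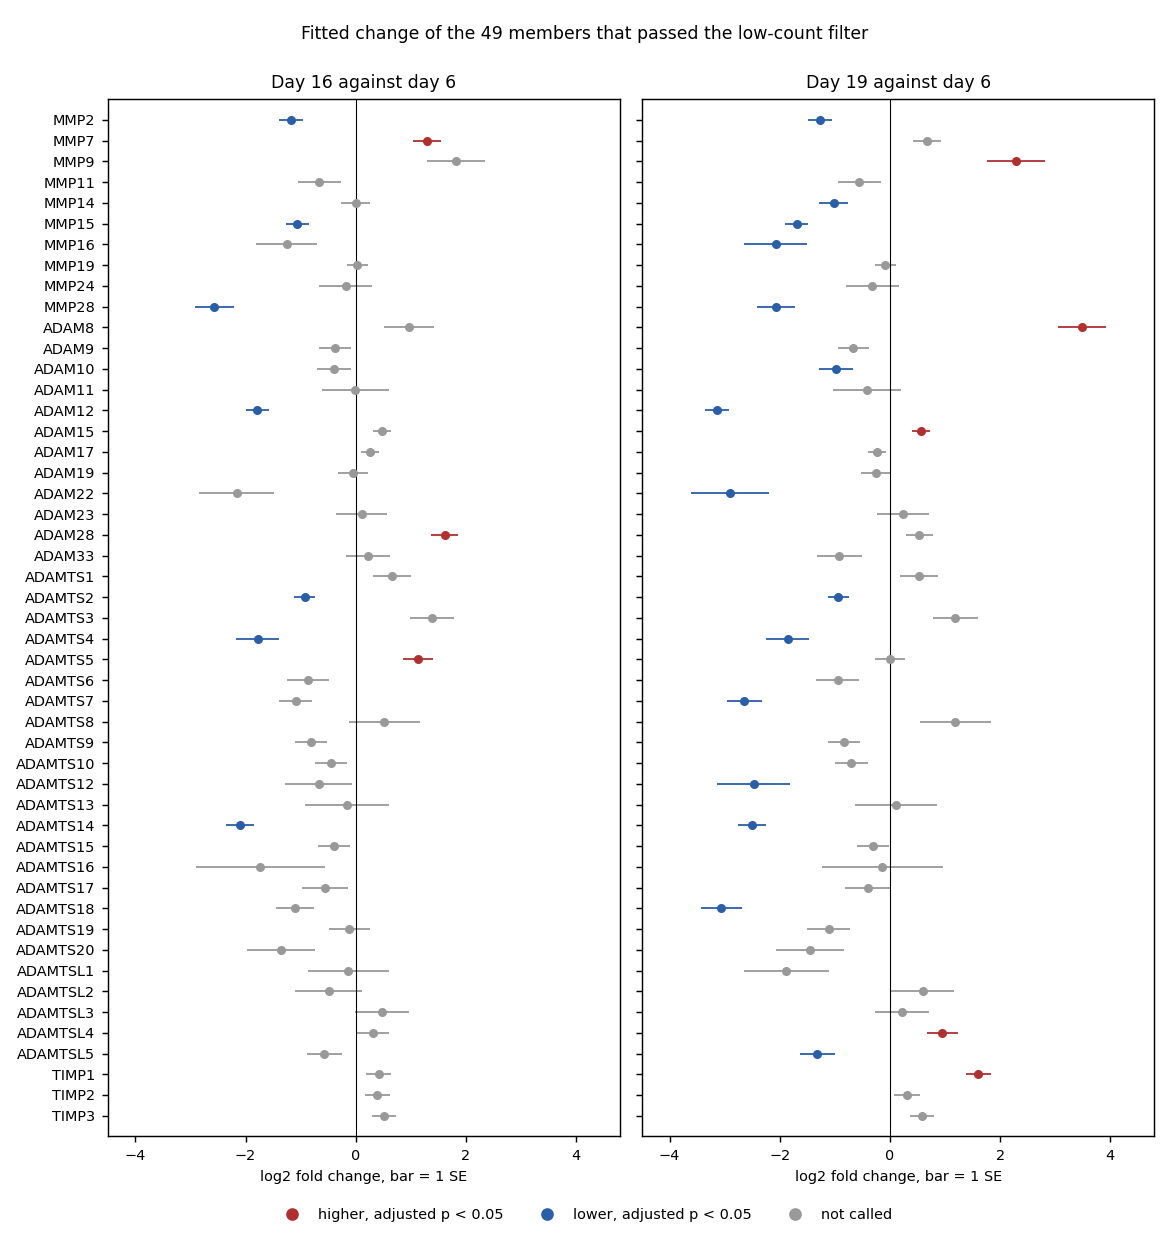
Fitted log2 fold change (x axis) with 1 SE on each side for the 49 members that passed the low-count filter (y axis, by family), at day 16 and day 19 against day 6; coloured points have an adjusted p under 0.05. At day 19, 15 members are lower and 5, namely MMP9, ADAM8, ADAM15, ADAMTSL4 and TIMP1, are higher.

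These counts hang on day 19 replicate 1. Without it, 21, 18 and 33 members were called in the 3 comparisons, and all members called with it stayed called. Of all genes, 20.4%, 44.7% and 54.2% were then called. At day 19 against day 16 the 18 members were a smaller share than that of all genes. With all 9 libraries the called members were a larger share there (8.16% against 1.2%). Of the 49 members, this library had the highest of the 3 day 19 values for 30 (61.2%; 43.9% of all genes tested) and was more than 2 times above both others for 10 (20.4%; 15.6% of all genes), namely ADAM10, ADAM11, ADAM33, ADAMTS1, ADAMTS4, ADAMTS8, ADAMTS12, ADAMTSL1, ADAMTSL3 and MMP24.

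Genes that control or accompany these enzymes were counted from a list. Of 24 tested genes of activation and pericellular control, 3 were called higher at day 16 against day 6 and none lower, where 5.12% and 3.74% of all genes were. Between day 6 and day 19, 7 were called higher and 4 lower, where 12.7% and 10.2% of all genes were. The list's median log2 change was 0.04 and 0.45, beside -0.00027 and 0.02 over all genes. PLAT, tissue plasminogen activator, which yields the plasmin that activates proMMPs, went from 201, 111 and 118 CPM on day 6 to 598, 375 and 746 on day 16 (3.99-fold, edgeR adjusted p = 0.00521). RECK, a membrane-anchored inhibitor of MMPs, fell by 1.69 on the log2 scale at day 19 (edgeR adjusted p = 0.00658), from 42.0, 39.1 and 42.6 CPM to 20.8, 9.69 and 7.93. TFPI2, a Kunitz inhibitor of plasmin, rose 2.93-fold at day 19 (edgeR adjusted p = 0.00503). The 11 calls at day 19 against day 6 became 6 without day 6 replicate 2 (12.8% of all genes) and 4 without day 6 replicate 3 (11.8%). They became 5 without day 19 replicate 3 (15.4%) and 16 without day 19 replicate 1 (54.2%). None of the 24 was called between day 16 and day 19 (1.2% of all genes), but 13 were without day 19 replicate 1 (44.7%).

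Of 27 matrix and proteoglycan substrates, 2 were called higher and 1 lower at day 16, and 2 higher and 3 lower at day 19, both against day 6. These shares are near those of all genes (5.12% and 3.74% at day 16, 12.7% and 10.2% at day 19), and the list's median log2 change was -0.20 and -0.33. VCAN, versican, a substrate of ADAMTS1, ADAMTS4, ADAMTS5 and ADAMTS9, stood at 253, 207 and 234 CPM on day 6 and 121, 32.6 and 36.7 on day 19 (-1.87, and -2.73 without day 19 replicate 1; edgeR adjusted p = 0.0164; 0.0514 and 0.0508 without day 6 replicate 1 and day 19 replicate 3). IGFBP3, a substrate of ADAM12 and ADAM28, went from 116 ± 26.9 CPM to 371 ± 49.9 on day 16 and 276 ± 42.2 on day 19, and was called at both (edgeR adjusted p = 0.00213 and 0.00499). ELN, elastin, rose 2.59-fold at day 19 (edgeR adjusted p = 0.00656). Without day 19 replicate 1 the 5 calls at day 19 against day 6 became 13, of which 10 were lower, beside 54.2% of all genes called. Without day 6 replicate 1 or day 19 replicate 3 they became 3 (13.5% and 15.4% of all genes). The 3 calls at day 16 became 8 without day 19 replicate 1 (20.4% of all genes). They became 1 without day 6 replicate 2 or 3 or day 16 replicate 2 (4.84%, 4.05% and 4.64%).

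Of 20 membrane substrates of ADAM sheddases, 5 were called higher and none lower at day 16 against day 6, where 5.12% and 3.74% of all genes were. Between day 6 and day 19, 6 were called higher and none lower, where 12.7% and 10.2% of all genes were, and the list's median log2 change was 0.20 and -0.03. SDC4, a heparan sulphate proteoglycan of the cell surface, went from 50.3 ± 7.60 CPM to 166 ± 4.25 and 208 ± 28.0 (edgeR adjusted p = 0.000476 and 0.000148). HBEGF, whose soluble form is a ligand of the epidermal growth factor receptor, went from 3.88 ± 0.223 CPM to 10.7 ± 3.33 on day 19 (2.76-fold, edgeR adjusted p = 0.0107). The 5 calls at day 16 became 2 or 3 without any 1 library of days 6 or 16 (4.05% to 6.37% of all genes). They became 8 without day 19 replicate 1 (20.4%). Without day 19 replicate 1, 6 were called higher and 8 lower at day 19 against day 6, where 54.2% of all genes were called in either direction. Of the astacin relatives, 6 were tested; MEP1B, a meprin subunit, rose 6.13-fold from day 6 to day 19 (edgeR adjusted p = 0.0056).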

How the data were processed

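The deposited table holds raw, whole-number counts of reads for each gene, 1 column a library. Per the labels' protocols, Trizol RNA was selected for poly(A) on Dynabeads and fragmented with RNase III before adaptor ligation; the design text names an Ion Proton sequencer. Which aligner, counter, build and annotation were used, and whether strand was counted, is not stated in those sources, so genes with close copies are uncertain.

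Counts were scaled by TMM, filtered with filterByExpr and fitted with edgeR 4.0.16 (quasi-likelihood, robust; R 4.3.3) to all 9 libraries, with the day as only term; 16098 genes were tested. Calls are genes with an adjusted p below 0.05 (Benjamini-Hochberg across all tested). SE is the absolute log2 change divided by the square root of F. No pair of libraries of a day agreed within sampling noise (lowest chi-square per degree of freedom 10.4). Alternatives were DESeq2 1.42.0, limma 3.58.1 voom with sample weights, other scalings and filters, fewer libraries and a replicate block. The members, gene lists and tests were chosen with earlier results of these data known. Named were all called members and a panel of well-known ones; the 3 members with most counts were MMP2, TIMP2 and TIMP3. List genes and ratios named were chosen after their values were seen. Reference gene names are RefSeq's, assembly ARS1.2. 1 listed gene is not reported here by name.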

Additional observations from a re-analysis of the deposited data

How the results depend on the processing

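The number of members called (10 at day 16 against day 6, 4 at day 19 against day 16, 20 at day 19 against day 6) stayed within 1.5 times under other scalings and filters. With DESeq2 it was 15, 9 and 25, beside 12.4%, 10.5% and 27% of all genes. With voom it was 24, 19 and 35 (23.7%, 45.7% and 58.6% of all genes). When each fit held just the 6 libraries compared it was 22, 0 and 14 (19.8%, 0% and 15% of all genes). With the replicate number as a block it was 9, 0 and 20 (6.83%, 0% and 18% of all genes). Deviations of same-numbered libraries correlated between -0.177 and 0.158. Differently numbered libraries were not compared, so this does not settle whether the numbers pair the libraries. Leaving out 1 library gave 4 to 21, 0 to 18 and 11 to 33 members. The shares of all genes were then 4.05% to 20.4%, 0% to 44.7% and 11.8% to 54.2%. The highest of each is without day 19 replicate 1. No other single omission left a member called between day 16 and day 19, and at most 0.0978% of all genes were called there. The cause was not tested. Of 34 comparisons in which a member was called, 15 kept the call in every alternative and none reversed. The uncalled comparisons were followed only for the panel and for members called in at least 1 comparison. Of 24 such comparisons with an unadjusted p under 0.05, 22 were called under some alternative. Of 44 others among these members, 18 changed sign under some alternative, so no direction is claimed for those 18. With a biological coefficient of variation of 0.318 and 3 libraries a day, small changes are hard to call, and members under about 1 CPM rest on few counts.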

Other observations

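The naming rule leaves out 21 rows that the deposited annotation ties to the same families, of which 9 had no count in any library and 3 passed the filter on low counts. ADAMDEC1, an ADAM-like proteinase of macrophages and dendritic cells, MMP23B and the row described as ADAMTS1-like were the 3 that passed, and none was called in any of the 3 comparisons (edgeR adjusted p = 0.16 to 0.981). The rows related to ADAM1, ADAM5, ADAM18, ADAM20, ADAM21, ADAM29 and ADAM30, most of them known from testis, held few or no counts. ADAM2, a sperm surface protein, was at 0 in all 9 libraries, and its neighbours in the reference gene order differed from it: ADAM32 had 25 counts in all and ADAM9 stood at 17.8 to 43.6 CPM.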
